A study of Mus musculus and Homo sapiens with 22 samples.

Results

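Nodal signalling was followed through 9 mouse genes in mouse embryonic stem cells (mESCs) with and without Mettl3, the methyltransferase that writes N6-methyladenosine (m6A) on mRNA. The genes were the ligand Nodal, the coreceptor Tdgf1 (Cripto), the type II receptor Acvr2b, the transducer Smad2, its DNA-binding partner Foxh1, the secreted antagonists Lefty1 and Lefty2, and the intracellular inhibitors Smad7 and Skil. They were taken by name from the 56196 genes of the count tables, and each one passed the filter on low counts, as did 15731 genes in all. RNA-seq was available for 3 wild-type (WT) and 3 Mettl3 knockout (KO) mESC libraries. Both genotypes came from an earlier publication, both were kept in FBS/LIF medium, and neither carried another stated treatment. Whether the KO line is 1 clone is not given in the sources used here. m6A sites came from miCLIP2, an antibody crosslinking assay read at single-nucleotide resolution, with sites predicted by the classifier m6Aboost. The WT mESC site list drew on 3 replicates, and a list from 1 µg of mouse heart RNA served for comparison. The study calls its mESC miCLIP2 replicates biological and the RNA-seq matched to them, and the labels do not say whether they were separate cultures, so p-values measure the spread between these libraries.

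Nodal is a secreted ligand of the TGF-beta family. It binds type I and type II activin receptors together with an EGF-CFC coreceptor such as Tdgf1, and the receptors phosphorylate Smad2 and Smad3, which enter the nucleus with Smad4 and act on DNA with Foxh1. Lefty1 and Lefty2 are targets of the pathway that block the ligand and coreceptor, and Smad7 and Skil are targets that damp the signal inside the cell. In the early embryo the pathway patterns the body axis and mesendoderm, and in mESCs it is active through autocrine ligand.

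The sites that carry this description lie in the Tdgf1, Nodal, Lefty1, Lefty2, Acvr2b and Skil transcripts. Each sequence below is a 21-nt window of GRCm38 read 5′ to 3′ on the strand of the gene, and the capitals mark the 5 bases centred on the predicted A. DRACH is the usual m6A motif, in which a purine precedes the modified A and a C follows it. Tdgf1 is shown in full because it is the member whose mRNA fell in the KO. All 4 of its windows lie in the 3′ UTR, on the minus strand.
Tdgf1 site 1 (chr9:110940000-110940020): agtgactaAGACTggggaaac
Tdgf1 site 2 (chr9:110939902-110939922): cacactatTAATGtcagctct
Tdgf1 site 3 (chr9:110939874-110939894): ctacaacaGGACTactaaaag
Tdgf1 site 4 (chr9:110939818-110939838): gccaacaaAGACTgaatggca

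Sites 1, 3 and 4 were DRACH motifs, with scores of 0.757, 0.941 and 0.897, whereas site 2 was not and scored 0.573. The Lefty windows are shown because the sites of these neighbours differ. Their coding sequences are 91.9% identical over 1107 aligned bases, but the 3′ UTRs were not aligned. All 3 Lefty sites lie in 3′ UTRs on the plus strand.
Lefty1 site (chr1:180938131-180938151): gaggaatgTGACTcgctggcc
Lefty2 site 1 (chr1:180897968-180897988): ttagccaaGGACAtggctatg
Lefty2 site 2 (chr1:180898121-180898141): catgtcagGGACTgcccacag

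The Lefty1 site lay 166 nt past the last base of the stop codon and scored 0.595. The first Lefty2 site lay 165 nt past it and scored 0.932, and the second lay 318 nt past it and scored 0.619. For Nodal, the best-scored site in the coding sequence and the best-scored site in the 3′ UTR are given, both on the plus strand.
Nodal site 3, coding (chr10:61423272-61423292): tggctaaaGGACCccagggca
Nodal site 7, 3′ UTR (chr10:61424677-61424697): atgctgatGAACTccaaggag

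Their scores were 0.853 and 0.863. For Acvr2b and Skil, both on the plus strand, windows present in both the mESC and the heart list are given. They are the 3 in the Acvr2b 3′ UTR and the one that overlaps the Skil stop codon.
Acvr2b site 4 (chr9:119433828-119433848): acacaaagAAACTcctgtctt
Acvr2b site 5 (chr9:119434037-119434057): gcctcgggGAACTgcgatcag
Acvr2b site 6 (chr9:119434114-119434134): gctacactGGACTtgggcaca
Skil site 10 (chr3:31118599-31118619): ccctccaaGGACTaagagctg

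These 4 scored 0.866, 0.823, 0.898 and 0.867 in mESC. The Skil A lies at position -4 from the last base of the stop codon.

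Gene counts per library ranged from 22746733 to 27254245. Mettl3 itself was read 560, 698 and 612 times in the WT libraries and 462, 669 and 457 times in the KO libraries. On the CPM scale, which divides counts by the TMM-scaled library size, this is 26.4, 26.6 and 28.9 in WT and 18.4, 22.6 and 16.9 in KO. All KO libraries lay below all WT libraries, but transcript remained, and the log2 fold change of -0.50 (SE 0.14) did not pass the threshold of 0.01 (adjusted p = 0.0134, edgeR quasi-likelihood test, Benjamini-Hochberg over all genes tested). With the replicate number as a block it did (adjusted p = 0.00281). Which part of the gene the KO allele lacks is not given in the sources used here, so gene counts are a weak check of the genotype. The study has a direct one, as it measured m6A in poly(A)+ RNA by mass spectrometry and found most of it lost in the KO cells. The 7 pluripotency markers were abundant, with a summed level of 3285 to 3710 CPM in WT and 3174 to 3258 in KO, and Nanog at 679 and 648 CPM on average. Of these 7, Tfcp2l1 passed the test (log2 fold change -0.58, SE 0.13, adjusted p = 0.00519), and Esrrb at 0.43 (SE 0.11, adjusted p = 0.0106) did not, but was called under the block (adjusted p = 0.00191). Of 9 feeder fibroblast markers, 6 were under 1 CPM in both groups, and the list summed to 9.45 to 13.2 CPM in WT and 10.6 to 11.9 in KO. In this list Thy1 rose by 1.19 (SE 0.23, adjusted p = 0.00206) and Pdgfrb fell by 0.88 (SE 0.20, adjusted p = 0.00491) on the log2 scale. Mesendoderm markers summed to 13.4 to 19.6 CPM in WT and 14.9 to 16.9 in KO, most of it Eomes, and Foxa2 was the 1 of 4 tested that changed (log2 fold change 4.04, SE 0.57, adjusted p = 0.000351, from 1 to 2 counts in WT to 18 to 36 in KO). Primitive endoderm markers summed to 7.42 to 10.1 CPM in WT and 33.8 to 46.6 in KO. Dab2, an endocytic adaptor, made most of this rise, with counts of 22, 26 and 23 in the WT libraries against 1011, 1058 and 750 in the KO, whereas Gata4 fell by 1.59 (SE 0.31, adjusted p = 0.00206). The calls of Tfcp2l1, Gata4 and Pdgfrb were each lost without WT replicate 1, KO replicate 1 or KO replicate 3. The part of these markers in the results below was not tested.

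Of the 9 genes, Tdgf1 was the 1 that passed the threshold of 0.01 on the adjusted p, and it fell. Across all genes tested 29.7% changed, 17.1% upwards and 12.6% downwards, so calls were no more frequent among these 9 than among genes at large, which was not tested. The KO and WT ranges of CPM did not overlap for 3 members, Tdgf1 and Foxh1 (KO below) and Smad2 (KO above), against 56.1% of all genes. The median log2 fold change of the 9 was -0.06, and that of all genes tested was -0.02.

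**Figure D1:**
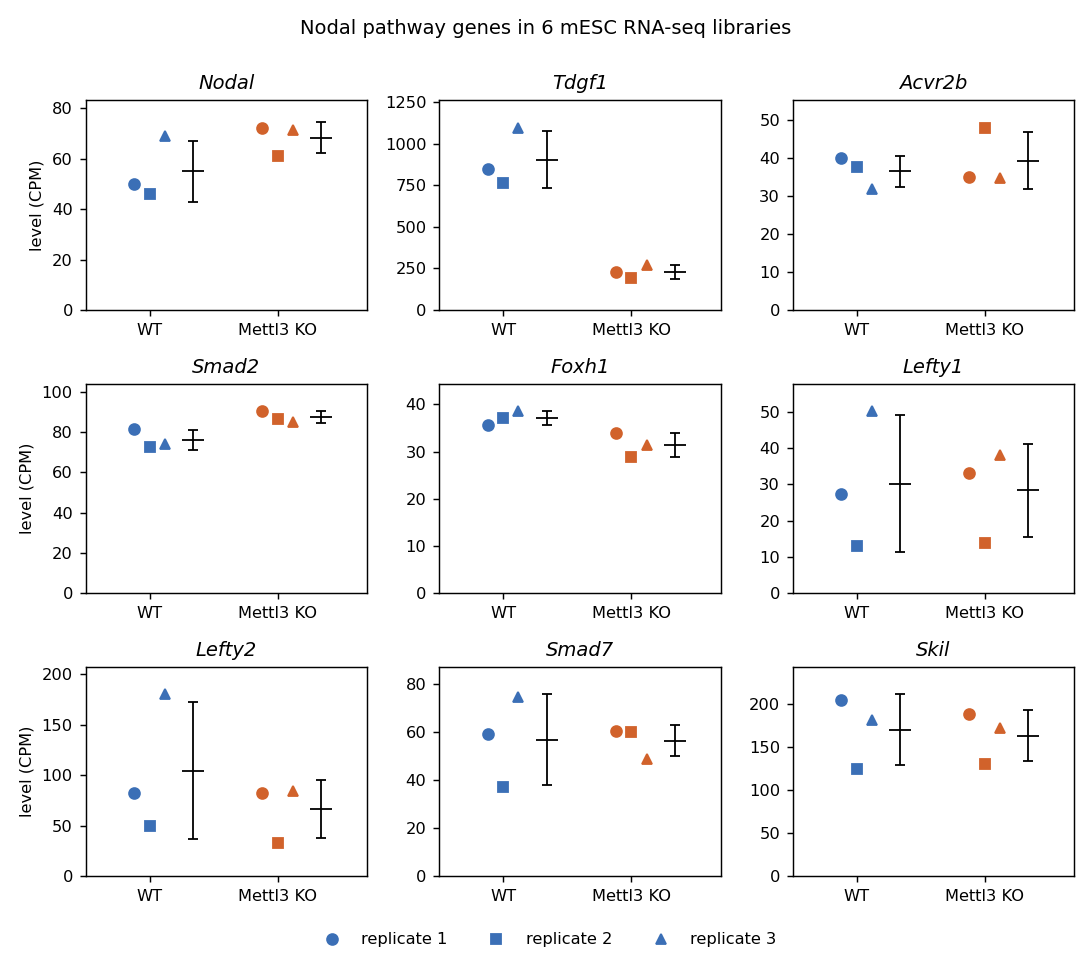
Level in CPM (y axis, from 0) of each of the 9 genes in the 3 WT (blue) and 3 Mettl3 KO (orange) libraries, with marker shape giving the replicate number and the bar giving mean and SD. Tdgf1 is the gene whose groups lie far apart, 763 to 1096 CPM in WT and 190 to 272 in KO, and Nodal, Tdgf1, Lefty1, Lefty2 and Skil are each lowest in replicate 2 of both groups.

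The ligand Nodal (chr10:61417972-61425338, plus strand) had counts of 1058, 1209 and 1457 in the WT libraries and of 1817, 1812 and 1934 in the KO. As CPM these were 49.9, 46.0 and 68.8 in WT and 72.3, 61.2 and 71.4 in KO. WT replicate 3 lay above KO replicate 2, so the groups overlapped. The mean went from 54.9 ± 12.2 CPM without the knockout to 68.3 ± 6.21 with it (SD, n = 3), with a log2 fold change of 0.31 (SE 0.15, adjusted p = 0.116). Nodal was called higher in KO when WT replicate 3 was left out (0.51, adjusted p = 0.00441), and over all alternatives its adjusted p ran from 0.00441 to 0.340. No other alternative called it.

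Tdgf1 (chr9:110939603-110946158, minus strand), the GPI-anchored coreceptor that presents Nodal to its receptors, had counts of 18003, 20032 and 23184 in the WT libraries and of 5679, 5623 and 7356 in the KO. In CPM this was 850, 763 and 1096 in WT and 226, 190 and 272 in KO. Every KO library lay below every WT library. The mean fell from 903 ± 173 to 229 ± 41.1 CPM (SD, n = 3), a 3.94-fold decrease, with a log2 fold change of -1.98 (SE 0.18, adjusted p = 2.67e-05). It was called under every alternative tried, between -2.11 and -1.81. In bulk RNA, fewer cells that express a gene and less RNA per cell cannot be told apart.

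The transcript of Tdgf1 has a near-identical copy in the genome. Of its 84-nt stretches, the length of the sequenced reads, 14.9% had an exact match on chromosome 16, at the processed pseudogene Tdgf1-ps1 (matches between 3730371 and 3732183). The annotated pseudogene covers 513 nt of that region (3730510 to 3731022). Its counts, and the sum with Tdgf1 given below, thus take in part of the copy alone. The pseudogene, named here after its values were seen, had counts of 24, 21 and 30 in the WT libraries and of 181, 187 and 220 in the KO. It rose, opposite to Tdgf1, by 2.7 (log2, SE 0.27, adjusted p = 5.21e-05). Its counts made up 0.105 to 0.133% of the sum of both genes in WT and 2.90 to 3.22% in KO, so they are small beside the loss from Tdgf1. When both were summed the log2 fold change was -1.93 (SE 0.17, adjusted p = 3.03e-05). Where the reads assigned to the pseudogene come from was not tested.

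**Figure D2:**
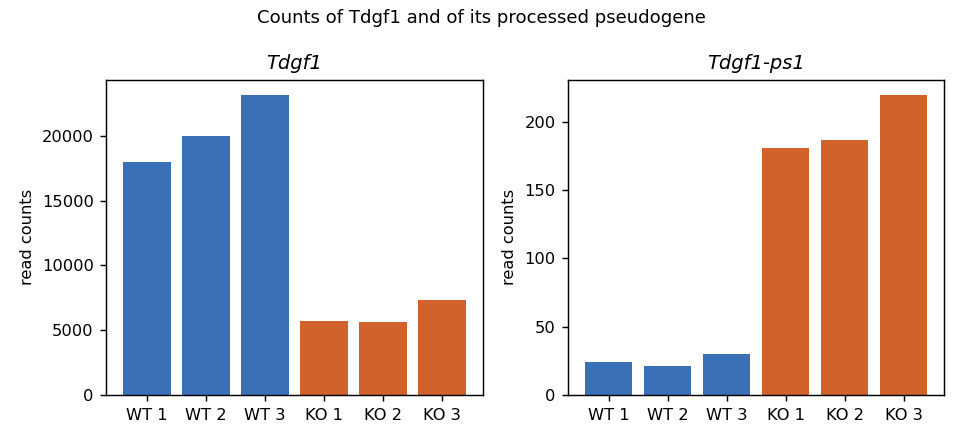
Read counts (y axis, from 0, separate scales) of Tdgf1 and of its processed pseudogene Tdgf1-ps1 in each WT (blue) and KO (orange) library. Tdgf1 falls from 18003 to 23184 counts to 5623 to 7356, while the pseudogene goes from 21 to 30 counts to 181 to 220.

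Neither the receptor nor the transducers passed the test. Acvr2b (chr9:119402118-119434995, plus strand), a type II activin receptor kinase, was at 39.9, 37.7 and 32.0 CPM in WT and 35.1, 48.1 and 34.8 in KO. The groups overlapped, and the log2 fold change was 0.11 (SE 0.15, adjusted p = 0.582). Its sign turned to -0.06 without KO replicate 2, the highest library.

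Smad2 (chr18:76241580-76310963, plus strand) was at 81.6, 72.5 and 74.0 CPM in WT and 90.5, 86.7 and 85.2 in KO. All KO libraries lay above all WT libraries, as for 29.2% of genes tested. The log2 fold change of 0.20 (SE 0.10) did not pass (adjusted p = 0.118), and over the alternatives it stayed between 0.16 and 0.31.

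Foxh1 (chr15:76668225-76669948, minus strand), the forkhead factor that brings Smad2 to DNA, was at 35.6, 37.1 and 38.6 CPM in WT and 33.95, 28.8 and 31.3 in KO. All KO libraries lay below all WT libraries, as for 26.9% of genes tested, and the log2 fold change of -0.24 (SE 0.11) did not pass (adjusted p = 0.0970). Kifc2, which lies 29 bp from Foxh1, fell by 1.45 on the log2 scale (SE 0.21, adjusted p = 0.000384).

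The antagonists Lefty1 (chr1:180935022-180938400) and Lefty2 (chr1:180893108-180899103), both on the plus strand and 41914 nt apart from start to start, varied more between libraries than between genotypes. Lefty1 had counts of 579, 339 and 1064 in the WT libraries and of 833, 412 and 1029 in the KO, which is 27.3, 12.9 and 50.3 CPM in WT and 33.2, 13.9 and 38.0 in KO. Lefty2 had counts of 1750, 1319 and 3811 in the WT libraries and of 2082, 992 and 2274 in the KO, which is 82.6, 50.2 and 180 CPM in WT and 82.9, 33.5 and 84.0 in KO. Both genes were lowest in replicate 2 and highest in replicate 3 of each group, and the groups overlapped.

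For Lefty1 the log2 fold change was -0.09 (SE 0.45, adjusted p = 0.888). For Lefty2 it was -0.64 (SE 0.43, adjusted p = 0.248), from 104 ± 67.6 to 66.8 ± 28.8 CPM (SD, n = 3). With the replicate number as a block Lefty2 was called lower (-0.56, SE 0.15, adjusted p = 0.00334). With no filter on low counts it was also called lower (-0.60, adjusted p = 3.78e-05), although its own counts are not low. In that fit its SE was 0.13 beside 0.43 in the reported fit, and that of Lefty1 was 0.15 beside 0.45. The adjusted p without the filter thus does not reflect the spread of Lefty2 between libraries. Within the numbered pairs the log2 ratio of KO to WT was 0.0045, -0.59 and -1.10, so replicate 1 shows no difference. Without WT replicate 3, the highest library, the log2 fold change was 0.01 (adjusted p = 0.985). Over the alternatives the adjusted p of Lefty2 thus ran from 3.78e-05 to 0.985.

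The proportion of the 2 Lefty mRNAs was steadier than their levels. Lefty2 made up 75.1, 79.6 and 78.2% of the counts of both genes in WT and 71.4, 70.7 and 68.8% in KO. All KO libraries lay below all WT libraries. The mean went from 77.6 ± 2.26% to 70.3 ± 1.32% (SD, n = 3), a difference of -7.31 percentage points (two-sided exact permutation test, p = 0.1, the smallest p that 3 against 3 libraries allow). Exact matches between the loci covered 8.72% of the 84-nt stretches of Lefty1 and 6.44% of those of Lefty2, and the count files set reads that do not map uniquely aside (13.9 to 15.2% of all lines per library), so exact matches would be missing from both genes.

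**Figure D3:**
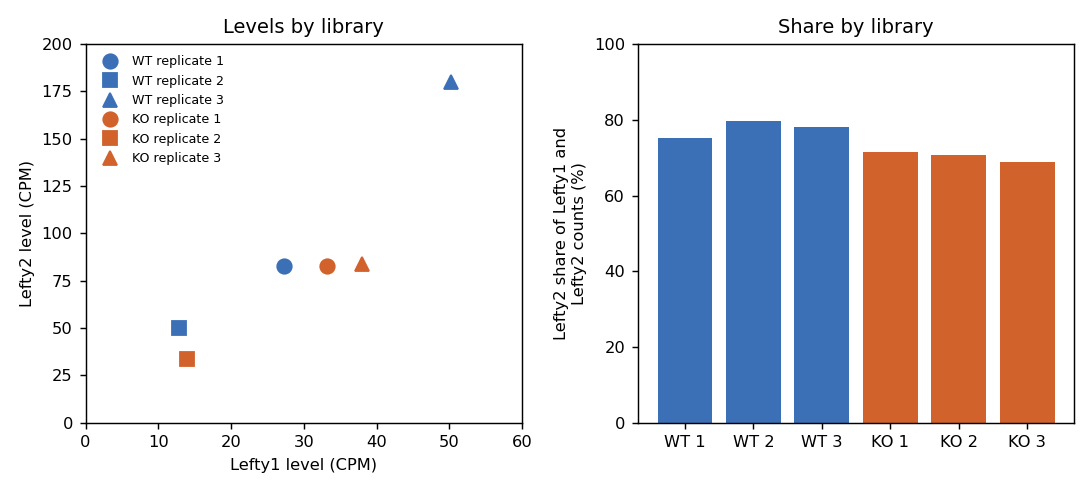
Left, level of Lefty2 against Lefty1 in CPM for the 6 libraries, with colour for genotype and shape for replicate number. Right, share of Lefty2 in the summed counts of both genes (y axis from 0 to 100%), which is 75.1 to 79.6% in WT and 68.8 to 71.4% in KO.

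The inhibitors inside the cell did not pass the test either. Smad7 (chr18:75367529-75395935, plus strand), which competes for the activated receptor, was at 59.1, 37.1 and 74.7 CPM in WT and 60.3, 60.1 and 48.9 in KO. The KO values lay within the WT range, with a log2 fold change of -0.01 (SE 0.21, adjusted p = 0.972). Skil (chr3:31095058-31122577, plus strand), the SMAD corepressor SnoN, was at 205, 125 and 182 CPM in WT and 188, 131 and 172 in KO. Here too the KO values lay within the WT range, replicate 2 was lowest in both groups, and the log2 fold change was -0.06 (SE 0.19, adjusted p = 0.811). For both genes the sign turned under some alternatives, and no alternative called either.

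**Figure D4:**
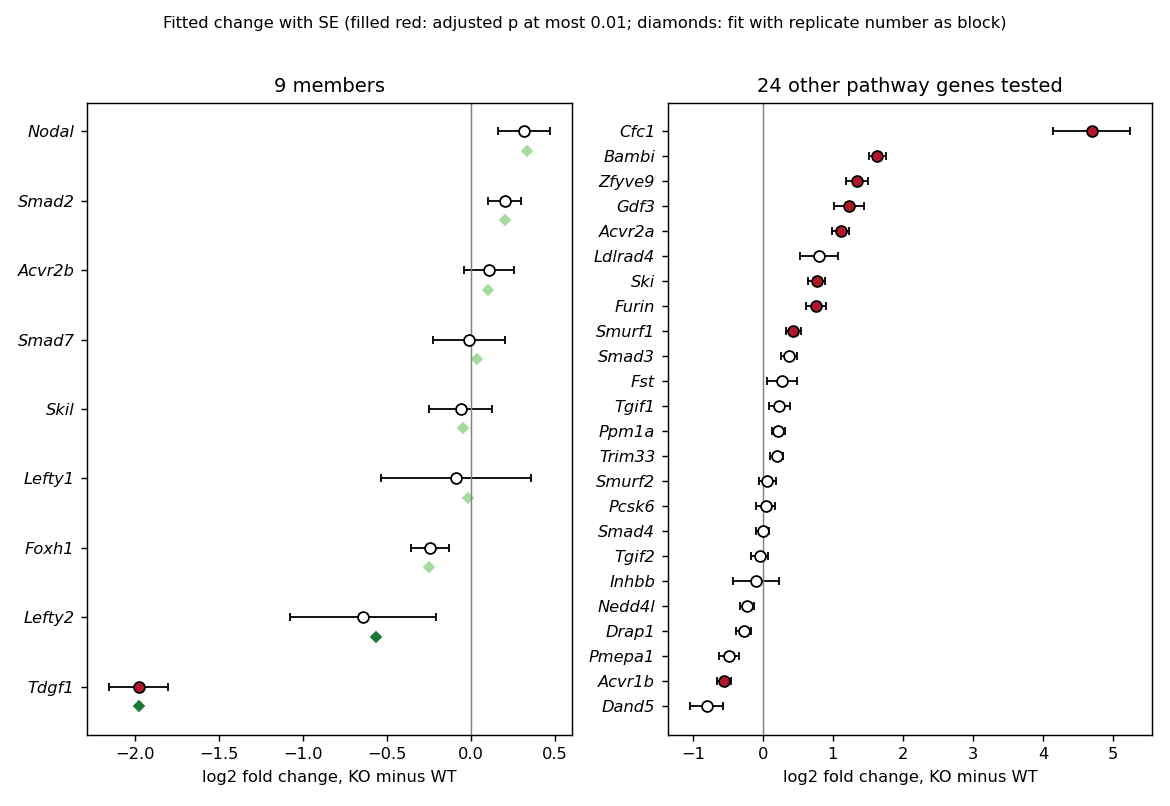
Fitted log2 fold change, KO minus WT (x axis, separate scales), with SE bars for the 9 genes (left) and for 24 of the 25 other genes of the pathway that were tested (right). Red circles passed an adjusted p of 0.01. Diamonds give the fit with the replicate number as a block, dark where called. Tdgf1 at -1.98 is the member called, with Lefty2 added under the block.

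Levels between genes were compared per kb of annotated exon. In WT, Tdgf1 stood highest at 344 ± 65.8 CPM per kb (SD, n = 3). Lefty2 followed at 39.9 ± 25.9, then Foxh1 at 27.2 ± 1.09 and Nodal at 26.2 ± 5.82, and their ranges overlapped in that order. Skil at 17.6 ± 4.25 lay below Nodal without overlap, and overlapped Lefty1 at 17.2 ± 10.7. Smad7 at 12.6 ± 4.18, Acvr2b at 9.30 ± 1.04 and Smad2 at 8.66 ± 0.556 closed the order, each overlapping its neighbour. In KO, Tdgf1 was still the highest of the 9 at 87.4 ± 15.7 CPM per kb. Nodal came next by mean at 32.6 ± 2.96, and its range overlapped that of Lefty2 at 25.6 ± 11.0.

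Among 29 other genes of the pathway, 25 were tested and 10 changed, 8 of them upwards and 2 downwards, where 29.7% of all genes tested changed. Their median log2 fold change was 0.22. Of the ligands, Gdf3, a Nodal-related factor, rose from 52.0 ± 20.5 to 122 ± 1.86 CPM (SD, n = 3; log2 fold change 1.23, SE 0.22, adjusted p = 0.00132). Of the listed convertases that cleave the Nodal precursor, Furin rose by 0.76 (SE 0.14, adjusted p = 0.00175), and the other was not called.

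Cfc1 (Cryptic), the other EGF-CFC coreceptor, went from counts of 0, 8 and 2 in the WT libraries to 110, 125 and 80 in the KO. All KO libraries lay above all WT libraries, and it rose by 4.70 (SE 0.55, adjusted p = 0.000125). Its level per length stayed far under that of Tdgf1, at 3.70 ± 0.75 CPM per kb in KO (SD, n = 3) beside 87.4 ± 15.7 for Tdgf1.

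The receptors moved in both directions. Acvr2a, a type II receptor like Acvr2b, rose from 17.0 to 36.8 CPM (1.11, SE 0.12, adjusted p = 7.73e-05). Acvr1b (ALK4), the type I receptor for Nodal, fell from 70.0 to 47.5 CPM (-0.56, SE 0.10, adjusted p = 0.00144), a call that was lost without KO replicate 1. The other type I receptor, Acvr1c (ALK7), had at most 2 counts in any library and was not tested.

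Of the SMADs, Smad3 was at 0.38 (SE 0.11, adjusted p = 0.0195), called under the block (adjusted p = 0.00844), and Smad4 at -0.01 (SE 0.10, adjusted p = 0.970). Zfyve9 (SARA), which anchors Smad2 near the receptor, rose by 1.34 (SE 0.16, adjusted p = 0.000135). Ski, the corepressor related to Skil, rose by 0.77 (SE 0.12, adjusted p = 0.000544).

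Smurf1, a ubiquitin ligase of SMADs and receptors, rose by 0.44 (SE 0.10, adjusted p = 0.00685), and lost its call in every fit that left out a library other than WT replicate 3. Bambi, a pseudoreceptor that blunts TGF-beta family signals, rose by 1.63 (SE 0.12, adjusted p = 1.17e-05).

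Each of the 9 genes held predicted m6A sites, 50 in all among the 25456 sites of the WT mESC list. Of all genes tested 41.4% had an exonic site, and of those with a WT level no lower than that of the lowest member 77.4% did. Smad7 had 12 sites, Skil 11, Nodal 9, Acvr2b 6, Tdgf1 4, Foxh1 3, Lefty2 and Smad2 2 each, and Lefty1 1. At least 9 sites were present in 3.85% of genes tested. The median score of the 50 was 0.780, beside 0.745 for the whole list. The score is the classifier's confidence, from 0 to 1, and not the share of molecules methylated. The list holds predicted sites alone, and the lowest score among the 50 was 0.530, so low scores here lie near that value.

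Of these sites, 44 fell on a DRACH motif, out of 604 such motifs in the 9 reference transcripts. The share of motifs with a site was 20.9% in Nodal (9 of 43), 17.6% in Foxh1 (3 of 17), 15.7% in Smad7 (8 of 51) and 11.1% in Acvr2b (6 of 54). It was lower in Skil with 6.99% (10 of 143), Tdgf1 with 6.98% (3 of 43), Lefty2 with 3.85% (2 of 52), Lefty1 with 2.86% (1 of 35) and Smad2 with 1.20% (2 of 166). The study kept miCLIP2 reads that map uniquely, so sites in stretches with a copy elsewhere could be missed. Exact copies covered 14.9% of the 84-nt stretches of Tdgf1, 8.72% of those of Lefty1 and 6.44% of those of Lefty2. This limits the shares of these genes and the placement of their sites given below. Outside the chromosome 18 genes, the most frequent pentamer was GAACT with 8 sites, and the AGACT of Tdgf1 sites 1 and 4 came to 6 in all. The 6 sites off the motif were 4 in Smad7, 1 in Tdgf1 (site 2, shown above) and 1 in the Skil 5′ UTR.

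By region, 31 sites lay in coding sequence, 16 in 3′ UTRs and 3 in 5′ UTRs, and 31 lay in the last exon. The placement differed by gene. The 4 Tdgf1 sites clustered 694 to 876 nt past the stop codon in a 3′ UTR of 1101 nt, whereas none lay in its coding sequence of 516 nt.

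In Nodal, 5 of 9 sites lay in the 716-nt second exon, its 1 internal exon, at positions -757 to -280 relative to the last base of the stop codon. Another lay at -64, and the remaining 3 lay from 51 to 531 nt past it. By density Nodal, with 4.30 sites per kb of exon, exceeded 99.2% of the genes tested that had a site. Exon length here joins all annotated transcripts of a gene. For Nodal it equals the reference transcript (2095 nt), but for Skil it is longer (9694 against 6717 nt), which lowers the density. The rank was not matched for level.

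The 3 Foxh1 sites were all coding, and those of Lefty1 and Lefty2 all in the 3′ UTR. Skil had 1 site in the 5′ UTR, 4 coding sites in its 1717-nt second exon and 5 from position -250 to -4, with 1 far out at 2751 nt past it. Smad2, with the longest 3′ UTR of the 9 at 6233 nt, had 1 site there, 61 nt past the stop codon.

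**Figure D5:**
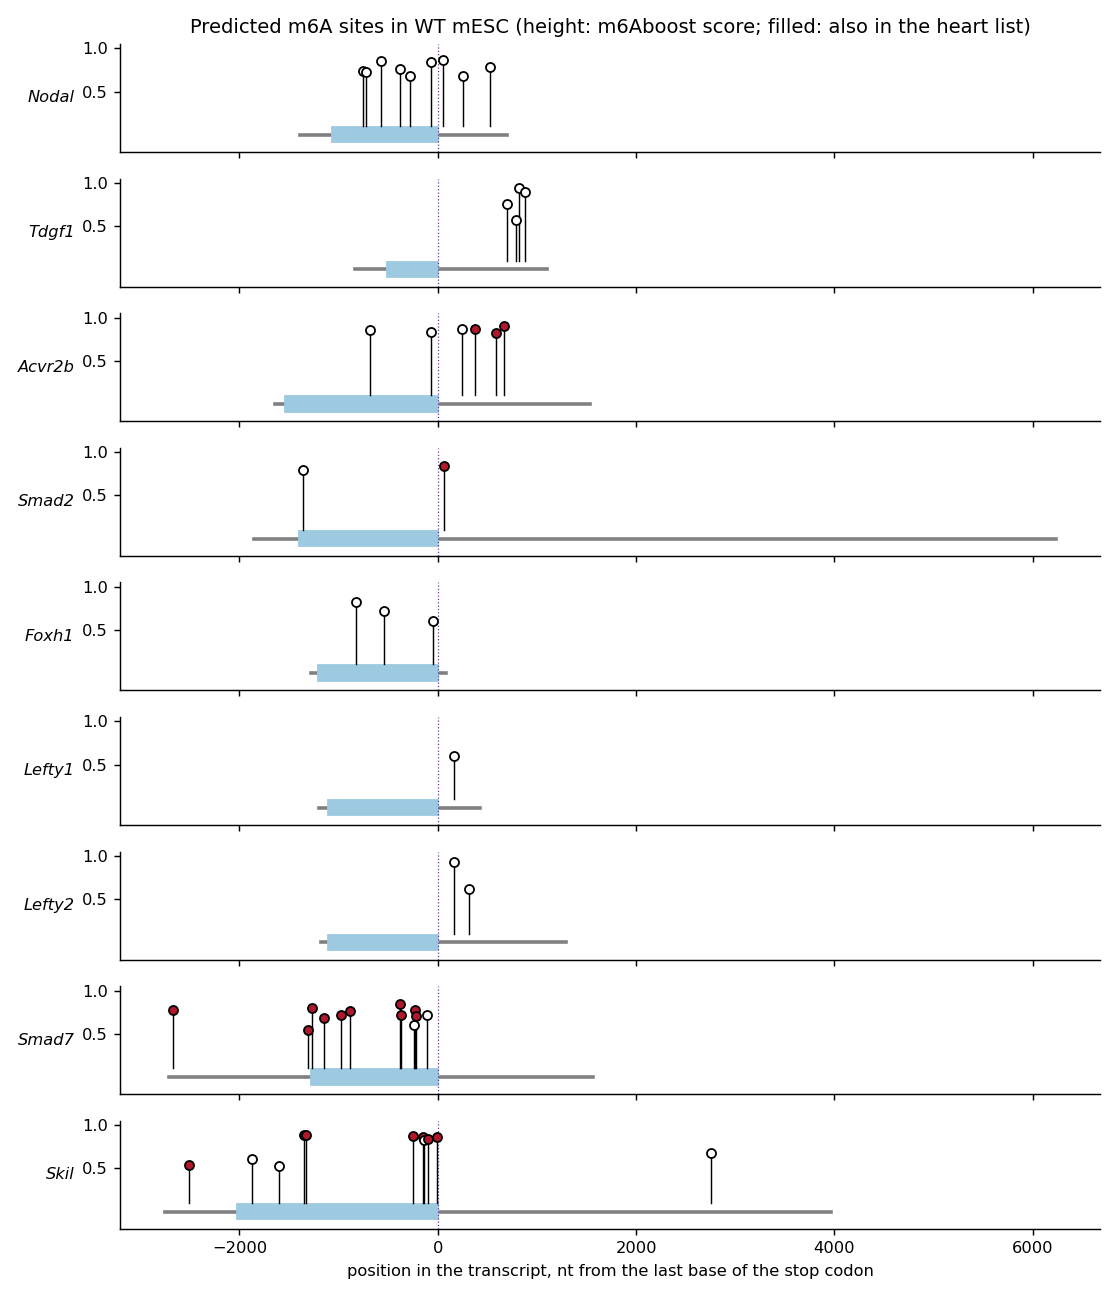
Predicted m6A sites of WT mESC on the reference transcript of each gene, drawn to scale in nt from the last base of the stop codon (x axis), with coding sequence as blue boxes, UTRs as grey lines and the m6Aboost score as height (y axis). Filled circles mark positions also in the heart list. The Tdgf1 sites sit at 694 to 876 nt in the 3′ UTR, and the Smad7 and Skil sites lie mostly in or before the coding end.

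The heart list held 28 sites in 4 of the 9 genes, 14 in Smad7, 9 in Skil, 3 in Acvr2b and 2 in Smad2. Of these, 21 were at the same base as in mESC, 10 in Smad7, 7 in Skil, 3 in Acvr2b and 1 in Smad2. Tdgf1, Nodal, Foxh1, Lefty1 and Lefty2 had no site in heart. Their level in heart was not measured here, so no site and no transcript cannot be told apart. The heart list rests on 1 library, so the rule of at least 2 replicates used for mESC could not apply to it. Of the genes tested in mESC, 49.7% had a site in the heart list, which held 46421 sites in all beside 25456 in the mESC list.

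Site numbers and log2 fold changes of the members are set side by side here, and a relation between them was not tested. Smad7, Skil and Nodal, with 9 or more sites, had log2 fold changes of -0.01, -0.06 and 0.31, and Tdgf1 with 4 sites had -1.98. Among all tested genes with a site 31.9% changed in either direction, beside 29.7% of all genes tested, which include them.

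Within 1 Mb of Tdgf1, 10 of 30 tested genes changed, 4 upwards and 6 downwards. Among all genes tested 29.7% changed, 17.1% upwards and 12.6% downwards. Its nearest tested neighbours were Lrrc2, 5387 bp away, which fell by 0.80 (SE 0.13, adjusted p = 0.000623), and Als2cl at -0.02 (SE 0.15, adjusted p = 0.945). Around Lefty1 and Lefty2, 5 of 22 changed. Around Nodal, 5 of 27 changed. Whether any of these shares differs from that of all genes was not tested.

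Over the 6 libraries, the log2 CPM of Tdgf1 was most like that of A730049H05Rik, Fah and Upp1 (Pearson r 0.999 for each) among 10845 genes searched, all of which were lower in KO, with log2 fold changes of -1.58, -1.34 and -2.13. For Nodal the highest were Prss35 and Nudcd3 (r 0.997 and 0.996). For Lefty1 they were Ctnnbip1, Clint1 and Egln3 (r 0.987, 0.982 and 0.982), and for Lefty2 Lap3, Tubb6 and Adk (r 0.999, 0.998 and 0.997). These values describe 6 points that share genotype and replicate number, and were picked as the highest of many.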

How the data were processed

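The gene counts are whole numbers that the authors made with htseq-count 0.12.4 (reverse strand, GENCODE M23) from 84-nt single-end reads mapped to GRCm38.p6 with STAR 2.6.1b, with 1 location kept for reads that map to several, which the counts set aside as not unique. In the WT mESC list the deposited score is the m6Aboost prediction, a fraction between 0 and 1, for peaks found by the authors in at least 2 replicates. The score deposited with the heart list has no stated scale, and its sites were used by position alone. The sample title of this heart library gives 1 µg.

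Lines that name no gene (38.7% of all counts) were left out. Genes passing filterByExpr (15731) entered edgeR 4.0.16 under R 4.3.3 (TMM, glmQLFit and glmQLFTest, KO against WT, no covariates), with Benjamini-Hochberg adjustment over all of them and a threshold of 0.01. The 2687 higher and 1982 lower calls became 2937 and 1199 with library sizes alone as scaling. DESeq2 1.42.0 was an alternative. Code was tested on simulated data. Replicates of a group differed beyond sampling noise (chi-square per degree of freedom 8.76 to 104).

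Deviations from the group mean correlated at 0.122, 0.464 and 0.303 for libraries numbered 1, 2 and 3, and at -0.34 to 0.11 across numbers. Number 1 thus lay hardly above WT replicate 3 with KO replicate 1 (0.110), and the pairing rests on numbers 2 and 3. Deviations cancel out within each group, so the values across numbers are not independent of those within numbers. The numbers were taken to pair the libraries, although the labels do not say what a number marks. Sites were assigned to exons of GENCODE M21 on the same strand, a release that held 98.1% of the gene IDs. Exact 84-nt matches were searched in GRCm38.p6. Log2 CPM used a prior count of 2.

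The members, lists and tests were chosen with earlier results of these data known. Named are all members, Mettl3, other pathway genes that were called plus fixed receptors and SMADs, up to 3 markers a list by mean CPM, the nearest tested genes, and up to 3 genes of at least 100 mean counts most like Tdgf1, Nodal, Lefty1 and Lefty2. Single values of some genes that this rule names are not reported here. HEK293T and the other heart lists were not used here.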

Additional observations from a re-analysis of the deposited data

How the results depend on the processing

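Tdgf1 was called lower in every alternative, and the count of members called was 1 except where stated. It was 2 with no filter on low counts and 2 with the replicate block (Lefty2 added in each), and between 1 and 2 when 1 library was left out (Nodal added without WT replicate 3). The count of other pathway genes called lay between 7 and 14, and was lowest without both libraries numbered 2, where Gdf3, Furin and Smurf1 lost their calls. This alternative was chosen after seeing the data, as was summing Tdgf1 with its pseudogene. Marker genes called were 6, and 3 to 6 with 1 library left out, with 3 without WT replicate 1, KO replicate 1 or KO replicate 3.

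With the replicate block, which uses the pairing by number, Lefty2 was at -0.56 and Smad7 at 0.036, the other pathway genes called were 14, the markers called were 8, and calls over all genes rose from 4669 to 6837. The block changed the call of no member other than Lefty2.

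Some members not called in the reported fit changed sign, and the cause was not tested. With library size only, which moved the median of all genes to 0.08, Lefty1 was at 0.045, Smad7 at 0.12 and Skil at 0.054. Smad7 was at 0.026 with no filter and at 0.018 with a minimum of 10 counts per library, and Acvr2b at -0.055 without both libraries numbered 2. With 1 library left out, log2 fold changes ran from -0.055 to 0.20 for Acvr2b, from -0.46 to 0.50 for Lefty1, from -0.99 to 0.0086 for Lefty2, from -0.25 to 0.088 for Skil, and from -0.25 to 0.23 for Smad7. Lefty1 and Lefty2 were highest without WT replicate 3. The difference in Lefty2 share ran from -8.56 to -6.35 points.

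Calls over all genes were 5437 with DESeq2, 6406 with no filter, 7336 at an adjusted p of 0.05 and 3042 without both libraries numbered 2, and 2761 to 5412 with 1 library left out. The 50 exonic sites became 30 at a score of at least 0.75 and 44 at DRACH motifs alone. The heart list, from another tissue and with 46421 sites in all, held 28 in these genes, which is no like-for-like alternative. Depth limits the sites found in genes of low level, and the files give no coverage per site.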
